A study of Mus musculus with 2 samples.

Results

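The renin-angiotensin genes of the heart were followed in 2 pooled RNA-seq libraries, as 8 genes chosen by symbol: Agt, Ace, Enpep, Agtr1a, Agtr1b, Agtr2, Mas1 and Atp6ap2. All 8 were found, each on 1 row, among the 22882 gene symbols of the deposited files. One library was made from hearts of Med1fl/fl mice, which carry loxP sites around exons of Med1 and no Cre in the labels, and served as control. The other was made from hearts of csMed1-/- mice, in which the same floxed alleles were deleted by a Cre transgene under the α-myosin heavy chain promoter. Every mouse was 23 days old, of mixed sex and on the C57BL6/J background, and RNA of 5 mice per genotype was combined before sequencing, so each genotype has 1 library and no value has a replicate or a test. This promoter is active in cardiomyocytes, whereas RNA was taken from heart tissue, which holds other cell types too.

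Renin cleaves angiotensinogen, the product of Agt, to an inactive decapeptide, and angiotensin-converting enzyme (Ace) trims this to angiotensin II. Angiotensin II acts on the AT1 receptor, encoded in mice by the paralogues Agtr1a and Agtr1b, to raise vascular tone, aldosterone release and, in heart, matrix production and growth, while the receptors encoded by Agtr2 and Mas1 are generally held to act in the opposite sense. Enpep encodes aminopeptidase A, which shortens angiotensin II further, and Atp6ap2 encodes the prorenin receptor, which is also an accessory subunit of the vacuolar proton pump.

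The values are FPKM, fragments per kilobase of transcript scaled to library depth, so levels of different genes can be compared per length. They summed to 780366 in control and to 716365 in csMed1-/- heart. No read counts are in the files used here. The low values fall on steps that correspond to 1, 2 and more reads, and their sizes give a depth for the csMed1-/- library that is 1.37 times that of the control library. Med1, the deleted gene, had 3.38 FPKM in the control pool and 0.412 FPKM in the csMed1-/- pool. A gene was kept when neither library had it at 0 and its larger value reached 1 FPKM, which left 10489 genes, and a gene was called when its values differed by more than 2-fold. This applied to 31.5% of the 10489 genes, of which 13.6% of all were higher and 18.0% of all were lower in csMed1-/- heart.

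The sequences that bear on how the members were measured come first. The study measured Ace by qPCR too, and reports it higher in csMed1-/- heart, by a smaller fold than in RNA-seq. The primer pair of that assay shows which Ace transcripts it reads.
Ace forward primer: gcctgggacttctacaaccg
Ace reverse primer: ctcatggaagccagggttgg
In the GENCODE M21 annotation (GRCm38, the assembly also called mm10) the forward primer matched exon 7 of the 25 exons of the long Ace transcript, at chr11:105972502-105972521, and the reverse primer matched exon 8, at chr11:105972977-105972996. The amplicon has 168 bases and lies in 2 of 4 annotated Ace transcripts. It is absent from the short coding transcript of 2418 bases and 14 exons, known as the testis form, whose RefSeq start at position 105975189 lies in intron 12 of the long one. The deposited FPKM is a single value for the gene and does not separate the long from the short form.

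The bases upstream of Ace and Enpep are shown because these were the members that differed by more than 2-fold, in opposite directions. Both are from RefSeq (GRCm38.p6) and run 5′ to 3′ on the gene's strand, up to the base before the annotated start (Enpep) or before the first annotated base of the gene in GENCODE (Ace). Capitals mark matches on either strand to GGGCGG (the GC box), TATAAA (the TATA box), CCAAT (the CCAAT box) and AGGTCA (the nuclear receptor half-site, searched because Med1 binds nuclear receptors).
Ace, chr11:105967698-105967944, plus strand: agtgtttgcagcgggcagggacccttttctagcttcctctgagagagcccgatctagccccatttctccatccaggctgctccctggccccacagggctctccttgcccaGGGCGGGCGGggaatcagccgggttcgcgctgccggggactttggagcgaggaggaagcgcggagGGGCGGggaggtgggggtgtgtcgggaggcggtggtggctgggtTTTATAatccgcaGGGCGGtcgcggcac
Enpep, chr3:129332750-129332999, minus strand: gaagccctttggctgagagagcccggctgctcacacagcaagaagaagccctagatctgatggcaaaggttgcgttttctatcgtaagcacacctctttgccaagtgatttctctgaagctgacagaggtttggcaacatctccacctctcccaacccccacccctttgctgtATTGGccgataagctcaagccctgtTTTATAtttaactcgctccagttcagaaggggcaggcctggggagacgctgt
The Ace window held 4 GC boxes, of which a pair overlaps, and 1 TATA box, and the Enpep window held 1 TATA box and 1 CCAAT box. Neither held AGGTCA, while the window of 250 bases before the internal Ace start held 1 match. Over all 32851 RefSeq starts, windows of 250 bases upstream held a GC box in 32.7%, a TATA box in 12.4%, a CCAAT box in 33.8% and the half-site in 14.0%. These are matches of letters only.

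Of the 8 members, 5 passed the filter, and 3 of these were higher and 2 lower in csMed1-/- heart. One was higher by more than 2-fold (Ace), beside 13.6% of all genes, and 1 was lower by more than 2-fold (Enpep), beside 18.0% of all genes. Enpep passed the filter only through the control library. The median log2 ratio of the 5 genes, csMed1-/- to control, was 0.73, beside -0.07 over all 10489 genes. Agtr1b, Agtr2 and Mas1 were under 1 FPKM in both libraries.

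**Figure D1:**
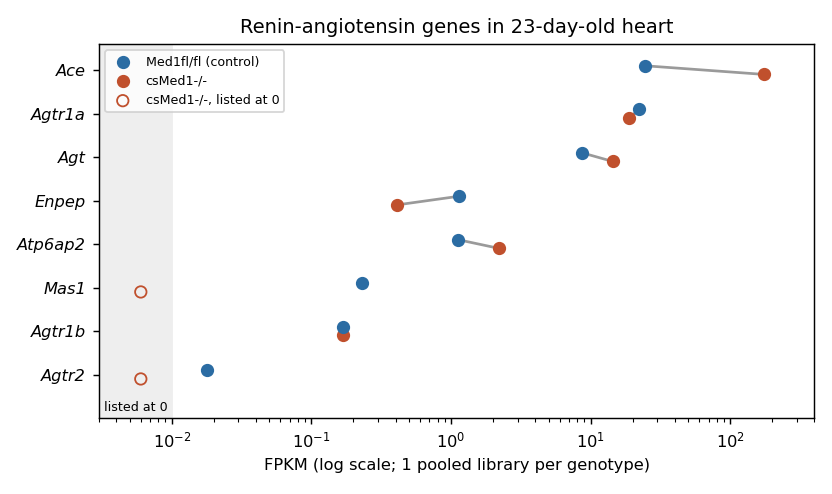
FPKM of the 8 renin-angiotensin genes (log scale) in the pooled Med1fl/fl and csMed1-/- heart libraries, 1 point per library, ordered by the control level. Ace moved from 24.4 to 174 FPKM, Agtr1a had 22.3 and 18.8 FPKM, and open circles mark Mas1 and Agtr2, listed at 0 in csMed1-/- heart.

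Agt (chromosome 8, 124556534 to 124569706), the only known source of angiotensin peptides, had 8.64 FPKM in the control pool and 14.4 FPKM in the csMed1-/- pool. The ratio was 1.66, or 0.73 on the log2 scale, which is within 2-fold. Of all genes kept, 19.4% had a higher ratio. The markers of adipocytes, a known source of angiotensinogen, were at or near 0, with 4 of 4 listed at 0 in control and a summed level of 0.0271 FPKM in csMed1-/- heart. Renin could not be followed to a gene. Ren1 and Ren2 share 1 row, which is listed at 0 in both libraries.

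Ace (chromosome 11, 105967945 to 105989964) was the member with the largest difference, at 24.4 FPKM in the control pool and 174 FPKM in the csMed1-/- pool. The ratio was 7.16, or 2.84 on the log2 scale, and 192 of the 10489 genes had a higher one. By the size of the read steps and the length of its long transcript, the control value corresponds to about 7500 reads and the csMed1-/- value to about 74000 reads. The spread between pools is unknown. Ace was the highest and Agtr1a the next of the 8 in both libraries. In control heart Ace and Agtr1a were at similar levels, with 1.09 times as much Ace per length, whereas in csMed1-/- heart Ace was 9.25 times Agtr1a. Ace alone made up 42.0% of the summed FPKM of the 8 genes in control and 82.9% in csMed1-/- heart. The antisense gene Gm11651 overlaps Ace on the opposite strand in the annotation, and whether the counting used strand is not given in the sources used here.

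Ace is an enzyme of endothelial membranes in most organs, so the endothelial markers are given beside it. Their summed level was 599 FPKM in the control pool and 571 FPKM in the csMed1-/- pool, and over 9 of 9 genes the log2 ratio ran from -1.90 (Tek, an angiopoietin receptor) to 1.85 (Vwf, von Willebrand factor) with a median of -0.48. Of the 9 genes, 1 was higher and 3 were lower by more than 2-fold, beside 13.6% and 18.0% of all genes. Centred on the median of these markers, which did not move together, the log2 ratio of Ace was 3.32. It was 2.91 centred on the median of all genes and 2.61 centred within 10 bins of GC content, described below. The part of endothelial cells in the Ace value was not tested. The fibroblast list was split. It summed to 407 FPKM in the control pool and 1167 FPKM in the csMed1-/- pool, and its log2 ratios ran from -1.11 (Lum, lumican) to 2.32 (Dpep1, a membrane dipeptidase) with a median of 1.23. Of its 7 genes, 4 were higher and 1 was lower by more than 2-fold, and 3 were lower in all. Its part in the Ace value was not tested. In RNA of heart tissue, more cells of a type and more RNA per cell cannot be told apart.

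The other proteases that can form angiotensin peptides were low or lay within 2-fold. Mcpt4, a mast cell chymase, had 1.05 FPKM in the control pool and 0.431 FPKM in the csMed1-/- pool (log2 ratio -1.29, or -0.52 with 1 FPKM added to both values). It passed the filter only through the control library. Cma1, another chymase, had 0.745 and 0.371 FPKM and was under the filter. Both are also in the mast cell list, of which 2 of 7 markers passed the filter and whose sum was 4.62 FPKM in the control pool and 2.69 FPKM in the csMed1-/- pool. Ctsd, the lysosomal protease cathepsin D, which can act on angiotensinogen as renin does, was the most abundant of this list at 1056 and 1820 FPKM (log2 ratio 0.79).

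**Figure D2:**
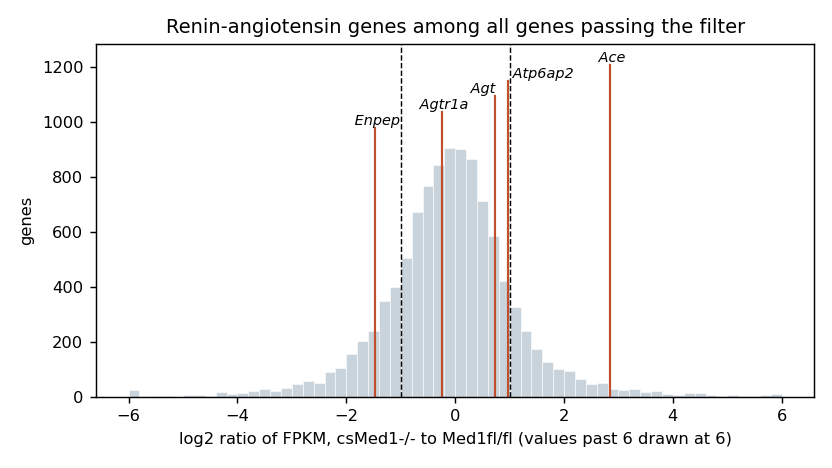
Distribution of the log2 ratio of csMed1-/- to control FPKM over the 10489 genes kept, with the 5 renin-angiotensin genes that passed the filter as vertical lines and 2-fold as dashed lines. Ace lies in the right tail at 2.84 and Enpep on the left at -1.48, with Agtr1a, Agt and Atp6ap2 between the dashed lines.

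Enpep (chromosome 3, 129269175 to 129332720) had 1.14 FPKM in the control pool and 0.408 FPKM in the csMed1-/- pool, a ratio of 0.358 or -1.48 on the log2 scale. These values correspond to about 300 and 150 reads. Its level was low in both libraries, and it passed the filter only through the control library. The call depends on how low values are treated, since with 1 FPKM added to both values its log2 ratio was -0.60. Aminopeptidase A is found on pericytes in several organs. The pericyte list summed to 184 FPKM in the control pool and 155 FPKM in the csMed1-/- pool, with log2 ratios from -1.44 (Vtn, vitronectin) to 1.14 (Cspg4, the NG2 proteoglycan) and a median of -0.13 over 6 of 6 genes. The part of pericytes in the Enpep value was not tested.

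Among the 12 peptidases listed for breakdown of angiotensins and kinins, 10 passed the filter, 7 of them lower and 3 higher in csMed1-/- heart, with a median log2 ratio of -0.73. Enpep and Anpep, 2 of 10, were lower by more than 2-fold, beside 18.0% of all genes. Anpep, aminopeptidase N, which acts on the product of aminopeptidase A, had 11.4 FPKM in the control pool and 4.75 FPKM in the csMed1-/- pool (log2 ratio -1.26). Prcp, a carboxypeptidase of angiotensin II, had 7.40 and 3.71 FPKM and lay just within 2-fold (log2 ratio -0.99). Dpp3, a dipeptidyl peptidase that cleaves angiotensin II, was higher, with 17.2 FPKM in the control pool and 46.5 FPKM in the csMed1-/- pool (log2 ratio 1.44). Lnpep, the insulin-regulated aminopeptidase, which binds a fragment of angiotensin, was higher too, with 1.41 and 3.49 FPKM (log2 ratio 1.31) as the sum of 2 rows that had log2 ratios of 1.58 and 0.87. With 1 FPKM added to both values its log2 ratio was 0.90. Ece1, endothelin-converting enzyme, the most abundant of the list, had 47.1 and 50.4 FPKM.

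Agtr1a (chromosome 13, 30336441 to 30382867), the main AT1 receptor of the mouse heart, had 22.3 FPKM in the control pool and 18.8 FPKM in the csMed1-/- pool. The ratio was 0.845, or -0.24 on the log2 scale, close to the median of all genes at -0.07. These values correspond to about 2900 and 3400 reads. Agtr1b (chromosome 3, 20314473 to 20367177) had 0.167 and 0.169 FPKM, a ratio of 1.01, on about 21 and 30 reads. Agtr1a was at 133 times the level of Agtr1b in control and at 112 times in csMed1-/- heart.

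The AT1 paralogues share part of their coding sequence, which bears on how reads of 50 bases are assigned. Their coding sequences have 1080 bases each, of which 981 (90.8%) are identical when aligned. Of the 1031 stretches of 50 bases in the Agtr1a coding sequence, 33 (3.20%) also occur in that of Agtr1b. The longest run they share has 66 bases and is shown because a read that falls inside it could come from either gene.
Shared run, Agtr1a at chr13:30381028-30381093 and Agtr1b at chr3:20316301-20316366 (GRCm38): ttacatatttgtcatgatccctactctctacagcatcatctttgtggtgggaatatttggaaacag
How the reads of this run were divided is not given in the sources used here, so the low Agtr1b values are uncertain, while the Agtr1a values rest mostly on sequence of its own.

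Agtr2 (chromosome X, 21484544 to 21489164) had 0.0179 FPKM in control, about 4 reads, and is listed at 0 in csMed1-/- heart. Mas1 (chromosome 17, 12841079 to 12868143) had 0.230 FPKM in control, about 33 reads, and is also listed at 0 in csMed1-/- heart. Of the 193 genes within 10% of the control level of Agtr2, 42 (21.8%) are listed at 0 in csMed1-/- heart, and of the 323 genes within 10% of the level of Mas1, 5 (1.55%) are. An exact 0 in these files can be a failed estimate. In control heart the abundant muscle genes Actc1 (cardiac actin), Mb (myoglobin) and the shared row of Myh6 and Myh7 (the cardiac myosin heavy chains) are listed at 0, against 9189, 1040 and 647 FPKM in csMed1-/- heart. In csMed1-/- heart, where Agtr2 and Mas1 are at 0, the 6 genes listed at 0 against more than 100 FPKM in control were small RNAs and the ribosomal RNA gene Rn45s. No ratio is given for Agtr2 or Mas1 for this reason. Airn, a long non-coding RNA, overlaps Mas1 on the opposite strand and had 1.81 FPKM in the control pool and 4.48 FPKM in the csMed1-/- pool.

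Genes that act next to the receptors were listed with them. Of 14 listed receptors and adaptors, 10 passed the filter, with 0 higher and 2 lower by more than 2-fold, beside 13.6% and 18.0% of all genes, and the median log2 ratio was 0.00. Agtrap, which promotes internalization of the AT1 receptor, had 11.9 FPKM in the control pool and 11.7 FPKM in the csMed1-/- pool. Adrbk1, the receptor kinase GRK2 and the most abundant of the list, had 49.5 and 50.4 FPKM. The lower genes were Rgs2 and Mtus1. Rgs2, a GTPase activator that shortens Gq signals, had 8.88 FPKM in the control pool and 1.27 FPKM in the csMed1-/- pool (log2 ratio -2.80). Mtus1, which encodes a protein that binds the receptor of Agtr2, had 20.7 and 6.52 FPKM (log2 ratio -1.66).

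The list of G proteins and their effectors around the AT1 receptor, which signals mainly through Gq, had 3 of 10 genes higher and 0 of 10 lower by more than 2-fold, beside 13.6% and 18.0% of all genes, with a median log2 ratio of 0.10. It also holds Gna12 and Gna13, which belong to the G12 family and not to Gq. The higher genes were Gna13 (7.42 and 25.2 FPKM, log2 ratio 1.76), Prkcd, protein kinase Cδ (4.25 and 9.68 FPKM, 1.19), and Prkca, protein kinase Cα (3.33 and 7.39 FPKM, 1.15), the last of which was within 2-fold with 1 FPKM added to both values (0.95). Gna12 was the most abundant at 103 and 84.4 FPKM. The α subunits Gnaq (1.28 and 1.54 FPKM) and Gna11 (65.7 and 59.6 FPKM), which couple to the AT1 receptor, lay within 2-fold.

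**Figure D3:**
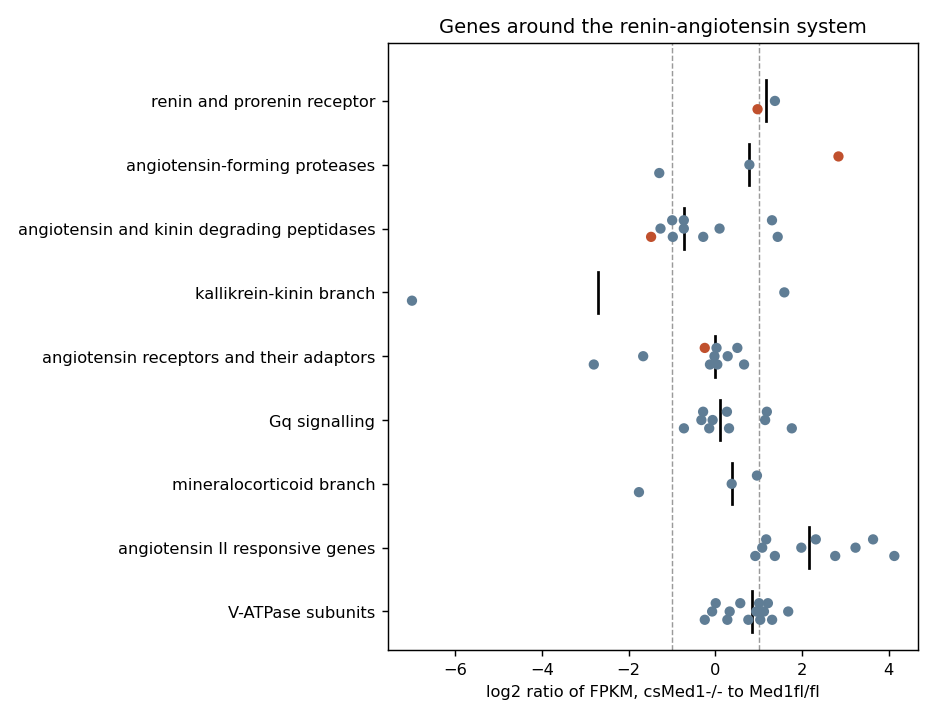
Log2 ratio of csMed1-/- to control FPKM for each gene that passed the filter in the 9 lists around the renin-angiotensin system, with renin-angiotensin members in red, other genes in blue-grey, the median of a list as a black bar and 2-fold as dashed lines. The angiotensin II responsive genes lie between 0.92 and 4.13, all on the right, while receptors and Gq genes centre near 0.

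Most listed genes that angiotensin II is known to induce in heart or vessel were higher in csMed1-/- heart. All 10 of the 13 listed genes that passed the filter had higher values, 9 by more than 2-fold against 13.6% of all genes, and the median log2 ratio was 2.15. Of these 10, Tgfb2 and Ccl2 passed the filter only through the csMed1-/- library, and the listed genes under the filter went both ways. The study's own lists from these libraries hold Ctgf, Tgfb2 and Adm, and Ace as well, so the direction of this list is not independent evidence, and its genes respond to many signals other than angiotensin II. Several are also products of fibroblasts, whose markers are given above with Ace, and the part of that cell type was not tested. Postn, the matrix protein periostin, had 1.57 FPKM in the control pool and 27.4 FPKM in the csMed1-/- pool (log2 ratio 4.13). Ctgf, connective tissue growth factor, had 30.0 and 373 FPKM (3.64), and was the most abundant. Tgfb2, a TGF-β ligand, had 0.799 and 7.51 FPKM (3.23). Adm, the vasodilator peptide adrenomedullin, had 4.25 and 21.2 FPKM (2.32). Rcan1, a calcineurin inhibitor, had 41.6 and 165 FPKM (1.98). Fn1 (fibronectin, 1.37), Edn1 (endothelin 1, 1.17) and Ccl2 (a monocyte chemokine, 1.08) had smaller log2 ratios, of which those of Edn1 (0.74) and Ccl2 (0.53) were within 2-fold with 1 FPKM added to both values, and Tgfb1 was within 2-fold at 23.2 and 43.9 FPKM (0.92).

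Atp6ap2 (chromosome X, 12587801 to 12617049) had 1.13 FPKM in the control pool and 2.21 FPKM in the csMed1-/- pool. The ratio was 1.96, or 0.97 on the log2 scale, just inside the 2-fold line, and 14.0% of all genes had a higher one. The values correspond to about 160 and 420 reads. The call turns on the scaling of the libraries, since centred on the median of all genes the log2 ratio was 1.04.

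The vacuolar proton pump, with which the Atp6ap2 product associates, showed the same direction in most of its subunits. Of 14 listed subunits, all passed the filter, 12 had higher values in csMed1-/- heart and 6 were higher by more than 2-fold against 13.6% of all genes, with none lower by more than 2-fold and a median log2 ratio of 0.85. Among the membrane subunits, Atp6v0c, which forms the proton ring, was the most abundant with 678 FPKM in the control pool and 1476 FPKM in the csMed1-/- pool (log2 ratio 1.12). Atp6v0b had 226 and 561 FPKM (1.31), Atp6v0d1 had 68.6 and 159 FPKM (1.21) and Atp6v0e had 94.7 and 194 FPKM (1.04). Of the cytosolic subunits, Atp6v1h had 5.73 and 18.4 FPKM (1.68) and the catalytic Atp6v1a had 1.40 and 2.82 FPKM (1.01, or 0.67 with 1 FPKM added to both values), while Atp6v1d was lower with 43.0 and 36.3 FPKM (-0.24). Atp6ap1, the other accessory subunit, had 147 FPKM in the control pool and 381 FPKM in the csMed1-/- pool (log2 ratio 1.37), so that the accessory pair differed in level by far more than in ratio.

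Levels in these libraries went with base composition, which touches any comparison of levels between members. With the genes kept in 10 equal bins by the GC content of their longest coding transcript, the median control FPKM was 3.03 in the lowest bin and 16.3 in the eighth, and in csMed1-/- heart it was 2.51 and 18.5. Atp6ap2 has a GC content of 40.5% and lies in the lowest bin. The part of base composition in its low level was not tested. Ace (55.6%) and Agt (56.3%) lie in the eighth bin, Agtr1a (46.5%) in the third and Enpep (45.5%) in the second, where the median control FPKM was 4.20. The part of base composition in the low level of Enpep was not tested either. The ratio moved with GC content too, from a median log2 ratio of -0.36 in the third bin to 0.34 in the tenth. With each ratio centred on its own bin, a setting chosen after seeing the data, Ace was at 2.61, Atp6ap2 at 1.13, Agt at 0.50, Agtr1a at 0.12 and Enpep at -1.16, so Agtr1a changed sign, as it also did when centred on the endothelial markers (0.24), and Atp6ap2 passed 2-fold.

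**Figure D4:**
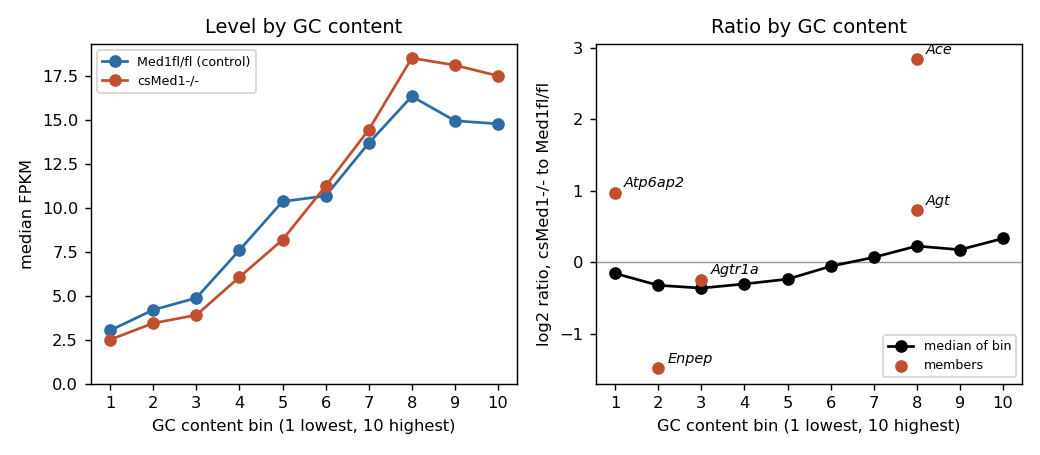
Left, median FPKM of the genes kept in 10 equal bins of transcript GC content (bin 1 lowest) for Med1fl/fl and csMed1-/- heart. Right, median log2 ratio of csMed1-/- to control FPKM by bin (black) with the 5 renin-angiotensin genes that passed the filter (red). Levels were lowest in the bin that holds Atp6ap2, and Ace at 2.84 lies far above its bin's median of 0.23.

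The labelled tissue was checked against markers of heart muscle. The 7 cardiomyocyte markers summed to 34324 FPKM in the control pool and 20961 FPKM in the csMed1-/- pool, with 2 of their rows (Myh6 with Myh7, and Actc1) listed at 0 in control, and the 5 rows above 0 in both summed to 34324 and 11125 FPKM. These 5, which also passed the filter, had a median log2 ratio of -1.03, from -2.74 (Tnni3, cardiac troponin I) to 0.56 (Actn2, sarcomeric α-actinin). The macrophage list had a median of 0.12 over 6 genes, from -0.92 (Fcgr1) to 0.88 (Mrc1), with 132 and 164 FPKM as its sums. Smooth muscle markers were split, from -1.04 (Myh11) to 7.17 (Cnn1), with a median of 0.51 and sums of 604 and 1024 FPKM. Most of the control sum was Acta2 (smooth muscle actin), which was lower in csMed1-/- heart (573 and 310 FPKM). Most of the csMed1-/- sum was Cnn1 (4.32 and 622 FPKM). Among atrial markers, Nppa, the gene of atrial natriuretic peptide and a marker of stressed ventricle as well, stood at 4.57 and Myl7 at -0.36, with a median of 2.89 over 3 genes and sums of 478 and 11170 FPKM. Nearly all of both sums was Nppa (468 and 11114 FPKM). The part of these shifts in the values of the members was not tested.

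**Figure D5:**
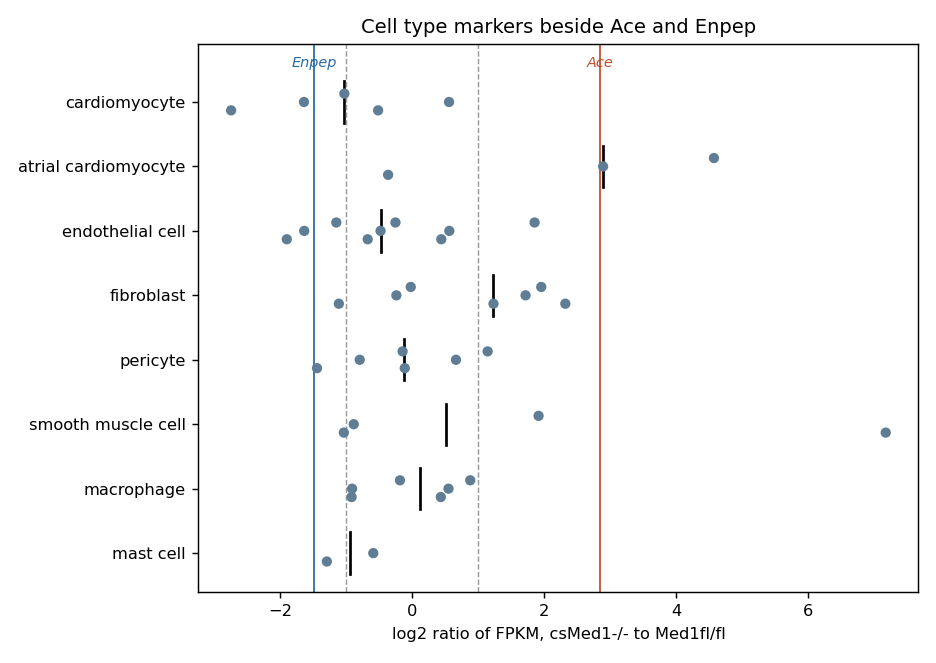
Log2 ratio of csMed1-/- to control FPKM for the cell type markers that passed the filter, 1 point per gene, with the median of each list as a black bar, 2-fold as dashed lines, and the ratios of Ace (red line, 2.84) and Enpep (blue line, -1.48) for comparison. The endothelial markers centre at -0.48 and the fibroblast markers at 1.23, both below Ace.

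In the plane of the control and csMed1-/- levels, the genes closest to Ace among those kept were Efhd2, Iah1 and Sorbs3, at distances of 0.13, 0.28 and 0.32 on the log2 scale over 2 libraries. Efhd2 had 23.6 FPKM in the control pool and 161 FPKM in the csMed1-/- pool. The closest to Enpep were Parp11, Pspn and B430010I23Rik, at distances of 0.03, 0.05 and 0.05. This closeness describes level and ratio only.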

How the data were processed

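Heart RNA of 5 mice per genotype was pooled, oligo-dT selected and made into 1 directional library each, sequenced from one end for 50 bases. Alignment by the authors was to mm10 with TopHat (2.0.8b), and the deposited FPKM values came from Cufflinks and Cuffdiff (2.1.1) with UCSC gene models. The library scaling is not given in the sources used here.

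Rows that share a symbol were summed (412 of 22882 symbols), and 210 rows carry joined symbols. Ratios were taken without a pseudocount, and a call means a ratio past 2-fold. With 1 library per genotype no test was made. The members and lists were chosen with earlier results of these data known. Named were all members, Med1, every gene of the pathway lists past 2-fold that passed the filter, with the most abundant of each of these lists. Also named were the ends of each marker range, and the 3 genes nearest in level to the members of highest and lowest ratio. Other marker genes past 2-fold are only counted. Prcp, Cma1, Agtrap, Gnaq, Gna11, Tgfb1, Atp6v1d, Airn, Gm11651, Bdkrb1, Klk1, Kng1, Cyp11b1, Cyp11b2, Hsd11b1, Hsd11b2, Acta2 and the muscle genes listed at 0 were added after their values were seen. The values of 2 listed genes are not reported here, although the counts, medians and sums of their lists include them.

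The absolute depth is not in the files. The worth of 1 read was estimated from steps among the low values of 1932 genes with a single transcript over 1500 bases, assuming fragments of mean 200 and SD 80 bases, and the read numbers are approximate. GENCODE M21 gave positions and GC content, the latter for 90.3% of the genes kept. Pseudocounts, filters, a 4-fold threshold, scalings and single rows were tried as alternatives, and GC bins were added after seeing the data. The computation was tested on simulated data with Python 3.11.15, numpy 2.4.6 and pandas 2.3.3.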

Additional observations from a re-analysis of the deposited data

How the results depend on the processing

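Of 47 alternative values for the 6 members above 0 in both libraries, 41 kept their side of the 2-fold line and moved by less than 1.5-fold, and neither Ace nor Enpep changed sign. Within 2-fold, Agtr1a (log2 ratio -0.24) was at 0.24 centred on the endothelial markers and at 0.12 centred within GC bins, and Agtr1b (0.01) was at -0.01 scaled to the sum without the 100 highest genes. The exceptions were Atp6ap2, whose log2 ratio of 0.97 became 1.04 centred on the median of all genes, 1.02 scaled to the 75th percentile, 1.45 centred on the endothelial markers and 1.13 centred within GC bins, Agt, at 1.21 when centred on the endothelial markers, and Enpep, at -0.60 with a pseudocount of 1. The cause was not tested. So 2 members rather than 1 were higher by more than 2-fold under median centring, 75th percentile scaling and GC bins. Of the lower members, 0 remained past the line at 4-fold, with 1 FPKM in both libraries, with 10 FPKM in either, or with a pseudocount of 1. Over all genes 1423 were higher and 1886 lower, which became 453 and 539 at 4-fold, 2504 and 3182 with no filter beyond values above 0, and 821 and 885 at 10 FPKM. With a pseudocount of 1 they became 1081 and 1291. Of the 60 other pathway genes that passed the filter, 22 (36.7%) were higher and 6 (10%) lower past 2-fold, beside 13.6% and 18.0% of all genes. Most of the 22 came from 2 lists, with 9 of 10 angiotensin II responsive genes and 6 of 14 V-ATPase subunits. The pooled share therefore does not describe the other lists, and the direction of the first list is not independent evidence. Of the 22 higher and 6 lower genes, 5 and 2 were past 4-fold. With a pseudocount of 1, 16 and 4 were past 2-fold, which left out Lnpep, Bdkrb2, Prkca, Edn1, Ccl2, Atp6v1a, Mcpt4 and Nr3c2. The angiotensin II responsive genes higher by more than 2-fold were 7 with a pseudocount of 1 and 8 within GC bins, in place of 9, and Mcpt4 was also within 2-fold in GC bins. Single rows left the members as they were, each having 1 row. No paired analysis was possible because each genotype has 1 pooled library, and for the same reason no library could be left out. Depth limits Agtr1b, Agtr2 and Mas1 most.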

Other observations

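In the kinin branch, whose peptides Ace degrades, 2 of 6 listed genes passed the filter. Klk1, tissue kallikrein, is listed at 0 in both libraries, which can be a failed estimate, and Kng1, kininogen, had 0.0915 FPKM in the control pool and 0.0293 FPKM in the csMed1-/- pool. Bdkrb2, the constitutive bradykinin receptor, had 0.379 FPKM in the control pool and 1.14 FPKM in the csMed1-/- pool (log2 ratio 1.59). It passed the filter only through the csMed1-/- library, and with 1 FPKM added to both values its log2 ratio was 0.64, within 2-fold. Bdkrb1, the inducible bradykinin receptor, had 0.0412 and 0.196 FPKM and was under the filter. Cpn2, a subunit of the kinin-degrading carboxypeptidase N, had 1.23 FPKM in the control pool and 0.00966 FPKM in the csMed1-/- pool, a log2 ratio of -6.99. Its csMed1-/- value is near 0, so the size of this ratio is uncertain. Cpn2 passed the filter only through the control library, and with 1 FPKM added to both values its log2 ratio was -1.14.

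In the mineralocorticoid branch, Nr3c2, the mineralocorticoid receptor, had 1.22 FPKM in the control pool and 0.361 FPKM in the csMed1-/- pool (log2 ratio -1.76). It passed the filter only through the control library, and with 1 FPKM added to both values its log2 ratio was -0.71, within 2-fold. Sgk1, a kinase that aldosterone induces and the most abundant gene of this list, had 34.8 and 45.2 FPKM. Cyp11b2, aldosterone synthase, is listed at 0 in both libraries, and Cyp11b1 had 0 and 0.00571 FPKM. Hsd11b1, which regenerates active glucocorticoid, had 3.72 and 7.24 FPKM (log2 ratio 0.96), and Hsd11b2, which inactivates it, 0.397 and 0.626 FPKM. Of the 7 genes listed, 3 passed the filter, and 1 of them was lower by more than 2-fold, beside 18.0% of all genes.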
